A study of Arabidopsis thaliana with 6 samples.

Results

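This report describes the 20 kb stretches of the *Arabidopsis thaliana* genome that carried the most trimethylated lysine 4 of histone H3 (H3K4me3). Chromosomes 1 to 5 were cut into 5959 bins of 20 kb from base 1. The bases of each bin under the deposited H3K4me3 domains were counted, and the top 5% of bins were taken. The bin at rank 298 had 5550 covered bases, and 39 bins tied at that value were all kept, which gave 309 H3K4me3-rich bins, 5.19% of all bins. All material was young leaf tissue of the accession Columbia-0 (Col0), with no transgene or treatment named. The plants grew on soil at 22.5 °C with 8 h of light a day and 16 h of darkness. The series held 2 H3K4me3 chromatin immunoprecipitation samples, 2 H3K27me3 samples, 1 input DNA sample and 1 mRNA sample. Each mark has 1 deposited domain list with no values by replicate, and the mRNA is given as the mean read depth of each gene. No value below therefore has a replicate error, and no difference between bins was tested. Neighbouring bins and genes are not replicates, and the 95% intervals cover counting error only.

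H3K4me3 is placed by Trithorax-type methyltransferases on nucleosomes near the start of transcribed genes, and its presence usually goes with recruitment or passage of RNA polymerase II. H3K27me3 is placed by Polycomb Repressive Complex 2 and marks genes that are kept silent in a given organ, such as flower or root regulators in a leaf. In the compact Arabidopsis genome genes lie close together, so a window of this size usually holds several of them.

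The mRNA table listed 20764 loci, with a median depth of 6.74 and none below 1, and 72.9% of the 27444 protein-coding genes were in it. Genes missing from the table were set to 0. The number of reads behind a depth and any scaling were not stated, so its counting error is unknown, as is whether strand was used in counting. Leaf markers were high in it. RBCS1A and CAB1, leaf photosynthesis genes, had depths of 12915 and 22244. The root genes RHD6, EXPA7 and RSL4, the seed genes CRA1, CRU3 and SESA1 and the flower genes AP1, AP3 and PI were not listed, and AG, a floral organ gene, had 1.41.

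The values that chose the bins were as follows. H3K4me3 covered 5550 to 9250 bases of the rich bins, with a median of 6050 (quartiles 5750 and 6600), and 0 to 5500 bases of the 5650 other bins, with a median of 2250. In all, it lay over 31.4% of the bases of rich bins and 11.6% of the bases of other bins. The last 3 bins inside the limit, all on chromosome 5 (18420001 to 18440000, 23080001 to 23100000 and 26360001 to 26380000), had 5550 bases. The first 3 outside it, on chromosome 1 (19100001 to 19120000 and 27920001 to 27940000) and chromosome 2 (17780001 to 17800000), had 5500. The cut therefore falls within a continuous distribution. Coordinates are 1-based in the TAIR10 build.

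Number and width of H3K4me3 domains are given as a description only, since the same domains chose the bins and more or wider ones are built into the choice. A rich bin was touched by a median of 7 H3K4me3 domains (quartiles 6 and 8), against 3 (2 and 5) in other bins. The 2062 domains centred in rich bins had a median width of 900 bases, against 750 for the 17214 centred elsewhere, and 13.9% of them reached 1500 bases, against 4.89%. Of the 11 domains of 3000 bases or more in the genome, 8 were centred in rich bins. The authors' domain score, of unstated unit, stood at a median percentile of 64.4 within its list in rich bins and 48.5 elsewhere. At an equal width of 900 bases the median score was 1756 over 310 domains in rich bins and 1676 over 2477 domains in other bins. At that width the scores of the classes were close, while over all widths those of rich bins ranked higher.

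The richest bin in the genome was the chlorophyll a/b-binding protein cluster on chromosome 1 (10460001 to 10480000), with 9250 bases under 7 H3K4me3 domains. It held CAB1, CAB2 and CAB3, near-identical genes for the main antenna protein of photosystem II, with depths of 22244, 8364 and 10871. Reads can be split between such copies, so the single values are uncertain. H3K4me3 covered 94.6% of CAB1, 100% of CAB2 and 83.5% of CAB3. The widest domain of the bin, 2250 bases (10471051 to 10473300), ran over CAB3 and the end of CARB, the large subunit of carbamoyl phosphate synthetase. CARB had 2661 marked bases and a depth of 43.9. AT1G29880 had a depth of 50.4, and RWA4, named for reduced cell wall acetylation, had 8.55. All 6 genes of the bin carried H3K4me3, although their depths ran from 8.55 to 22244. H3K27me3 covered 300 bases here, in 1 domain inside CAB3.

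The second bin, on chromosome 4 (13380001 to 13400000), had 9000 bases under H3K4me3 and 6 genes. FBA5 and FBA7, fructose-bisphosphate aldolases of sugar metabolism, had depths of 422.7 and 43.7 with 1650 and 1800 bases under H3K4me3. FBA5 also had 1200 bases under H3K27me3. CPSUFE, a chloroplast sulphur transfer protein, had a depth of 27 and UKL4, a uridine kinase-like protein, 14.4. The widest domain of the bin, 2850 bases (13395301 to 13398150), covered AT4G26540, whose depth was 22.5. The shallowest gene, AT4G26490, had a depth of 1.53 and 750 marked bases. Aldolase genes led the bin in mRNA, but not in H3K4me3.

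The third bin, also on chromosome 4 (18060001 to 18080000), had 8750 bases over 8 genes, all of them marked and listed. GRP2, a cold shock domain protein that binds nucleic acids, was deepest at 95.5, followed by AT4G38710 at 48.4 and AT4G38690 at 34.0. The lowest depth was 1.82, for AT4G38650. H3K27me3 covered 900 bases of AT4G38710 and 300 of GRP2. The fourth bin, on chromosome 5 (22680001 to 22700000), reached 8550 bases with only 4 genes. HSP81-2 and HSP81-3, similar copies of the cytosolic chaperone HSP90, had 2100 and 2550 marked bases and depths of 124.4 and 137.2. AT5G56040, also named SKM2 after a sterility-regulating kinase, had the most H3K4me3 of the bin with 2850 bases, but a depth of 5.45. H3K27me3 covered 900 of its bases. Few, broadly marked genes filled this bin.

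The fifth bin, on chromosome 5 (19300001 to 19320000), had 8450 bases over 10 genes, of which 8 carried the mark. NF-YB2, a subunit of the CCAAT-binding factor NF-Y, lay wholly under H3K4me3 and had a depth of 36.1. Its neighbour in the family, NF-YB6 or LEC1-LIKE, which acts in seed development, had no base under either mark and a depth of 1.15. The unlisted gene AT5G47600 had 784 of its bases under H3K27me3 and 300 under H3K4me3. Silent and active genes thus lay side by side in a bin that ranked among the richest.

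**Figure D1:**
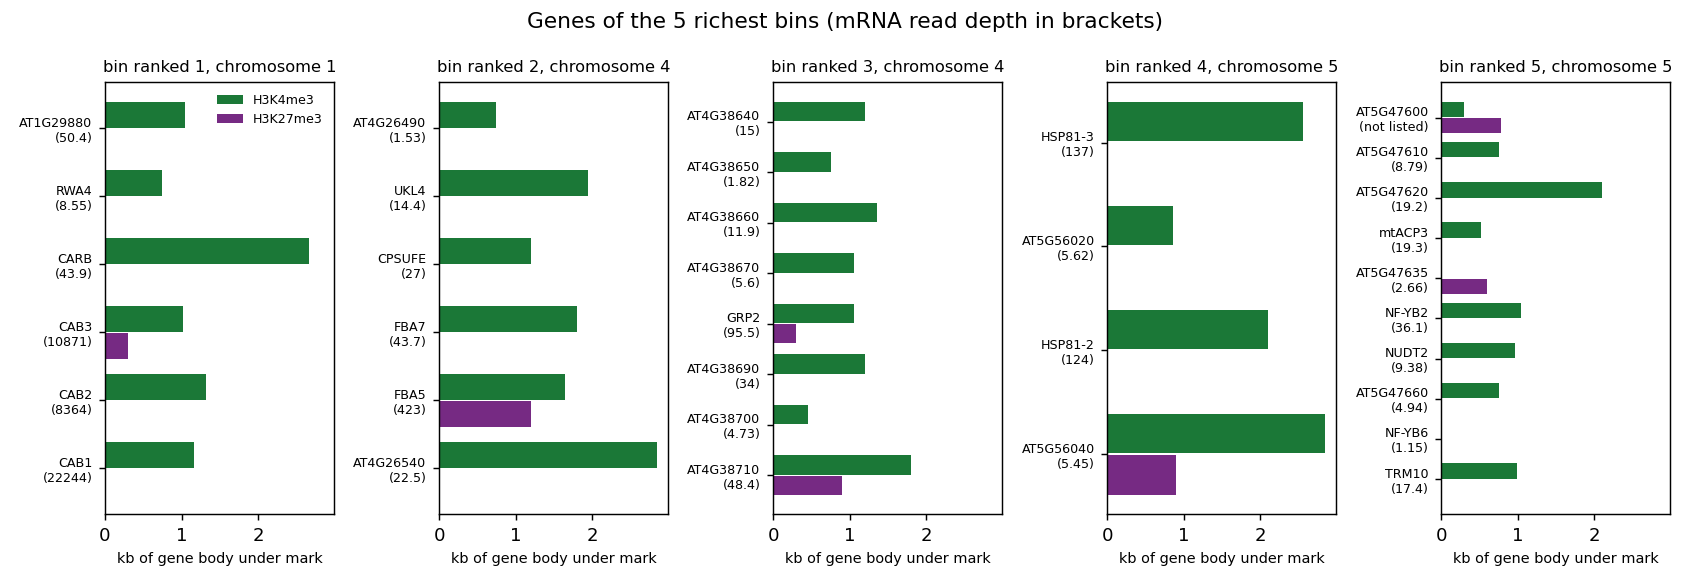
Bars give the kb of each gene body under H3K4me3 (green) and H3K27me3 (purple) for the protein-coding genes of the 5 richest bins, in chromosome order, with the mRNA read depth of each gene in brackets. H3K4me3 was on every gene but AT5G47635 and NF-YB6, while depths ran from 1.15 to 22244 among listed genes.

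The most mRNA-rich genes of these bins served photosynthesis. The 10 deepest were CAB1, CAB3, LHB1B2 (10377), CAB2, LHCA4 (5700), LHB1B1 (5129), LHCA1 (4934), PSBO1 (4304), LHCB6 (4288) and RCA (3998). LHB1B1, LHB1B2 and LHCB6 are photosystem II antenna proteins, LHCA1 and LHCA4 belong to the antenna of photosystem I, PSBO1 stabilises the oxygen-evolving complex, and RCA is Rubisco activase. In all 10 genes H3K4me3 covered at least 83.5% of the body. Deep photosynthesis genes were not particular to rich bins. The deepest gene of other bins was RBCS1A, at 12915. The summed depth of a rich bin had a median of 142.2 (quartiles 82.7 and 270.9), against 31.5 (8.92 and 72.5) in other bins. The rich bins held 7.84% of the protein-coding genes and 25.1% of the summed depth. Without the CAB bin the share of depth was 20.0%. Next in summed depth came the bin of LHB1B1 and LHB1B2 on chromosome 2 (14520001 to 14540000) with 15973 and the LHCA4 bin on chromosome 3 (17480001 to 17500000) with 5785.

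H3K4me3 per gene was widest on other proteins. The 5 genes of rich bins with the most H3K4me3 were PEN3, a defence transporter, with 4950 bases, GUN5 of chlorophyll synthesis with 3750, GLDP1 of photorespiration with 3600, TOC159, a receptor for protein import into chloroplasts, with 3450, and the methionine synthase MS2 with 3300. Their depths were 83.7, 794.9, 538.4, 85.8 and 239.0, well below those of the antenna genes. The antenna genes among the 10 deepest had 1021 to 1608 marked bases, which is most of each short body.

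Rich bins were dense in genes. They held a mean of 6.96 protein-coding genes (SD over bins 1.35, range 4 to 11), against 4.48 (SD 2.30, range 0 to 12) in other bins, and gene bodies filled 78.1% of their bases, against 52.8%. No bin with fewer than 4 genes was rich. Against only the other bins with at least 4 genes, whose mean was 5.71, the difference in gene number was 1.25 in place of 2.48. The share of rich bins was 0.896% among bins with 4 genes, 6.15% with 6, 13.4% with 7 and 28.5% with 9. It was lower beyond, at 15.8% of the 38 bins with 10 genes and 12.5% of the 8 with 11. None of the 3 bins with 12 genes was rich. Gene number and H3K4me3 bases had a Spearman rho of 0.65 across all 5959 bins, which share edges and domains. Among the 309 rich bins rho of H3K4me3 bases was 0.21 with gene number, 0.15 with summed depth and 0.012 with H3K27me3 bases. The choice of bins cut their H3K4me3 to 5550 bases or more. Such a narrowed range can by itself lower rho, so these values cannot be set against 0.65.

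**Figure D2:**
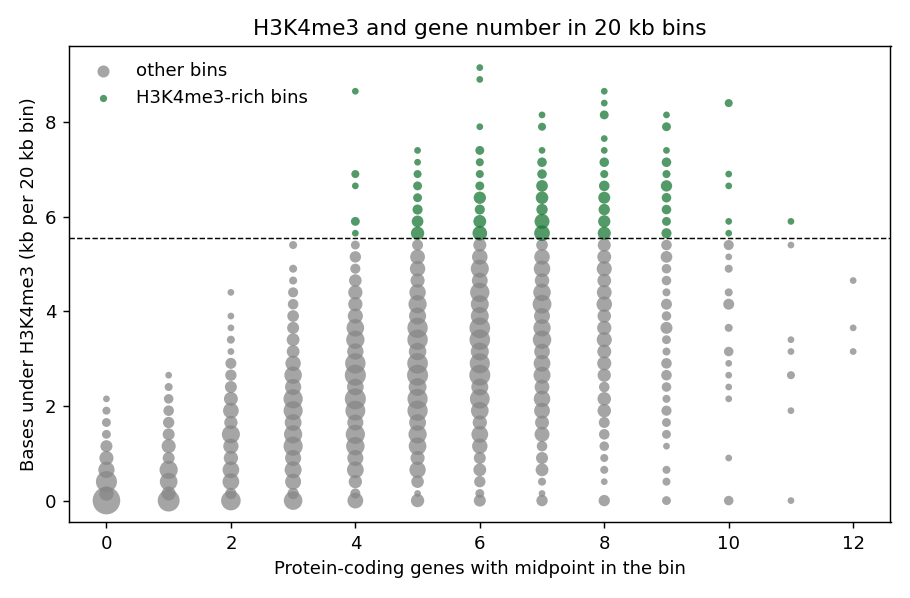
Each dot is a group of 20 kb bins with the same number of protein-coding genes (x axis) and H3K4me3 coverage within 250 bases (y axis, kb), with dot area growing with the number of bins and the dashed line at 5550 bases. Rich bins (green) started at 4 genes and reached 9250 bases at 6 genes, whereas bins with 12 genes stayed below the line.

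Rich bins with few genes had longer ones. In the 47 rich bins with 4 to 5 genes the median gene body was 2632 bases long and a marked gene had a median of 1050 bases of H3K4me3. In the 104 rich bins with 8 to 11 genes the body was 1859 bases and the marked stretch 873. The share of genes with the mark was 95.6% in the former and 83.9% in the latter. With few genes, a bin can reach the limit only with more marked bases per gene, so these values follow from the choice of bins. Body length also fell with gene number in other bins, from a median of 2409.5 bases at 4 genes to 1730.5 at 8. Genes in rich bins with 4 to 5 genes were also deeper than those in rich bins with 8 to 11. The median depths were 12.5 (95% interval 10.5 to 15.9) and 7.33 (6.39 to 8.34). The summed depth per bin nevertheless had medians of 129.6 and 159.

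Genes of rich bins were mostly present in the mRNA table. Of their 2151 protein-coding genes, 90.4% (89.1 to 91.6) were listed, beside 72.9% of all protein-coding genes and 71.4% (70.8 to 71.9) in other bins. Their median depth was 8.91 (8.20 to 9.54) against 3.03 (2.92 to 3.16), and the mean of log2(depth + 1) was 3.41 against 2.24, a difference of 1.17. These values count unlisted genes as 0. Among listed genes only, the medians were 10.5 and 6.60 and the log2 difference was 0.64, and with a pseudocount of 0.1 over all genes it was 1.83. A depth of 10 or more was found for 46.3% of them, beside 28.3% of all genes. All genes were listed in 163 rich bins (52.8%, 47.0 to 58.4), against 25.5% (24.2 to 26.9) of the 3931 other bins with at least 4 genes. Only 3 rich bins (0.971%) had no gene of depth 10 or more, against 18.9% of those other bins. The deepest gene gave a median of 51.7% of the depth of a rich bin and 58.6% in those other bins.

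The difference was also seen at equal gene number. In bins with 7 genes, the median depth was 8.69 (7.72 to 9.84) over the 94 rich bins and 2.84 (2.54 to 3.16) over the 607 others. In bins with 5 genes it was 11.8 (9.69 to 15.1) and 3.67 (3.38 to 3.94), and in bins with 9 genes 6.83 (5.11 to 8.79) and 1.56 (1.22 to 1.97). In both classes the medians were lower where more genes shared a bin.

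**Figure D3:**
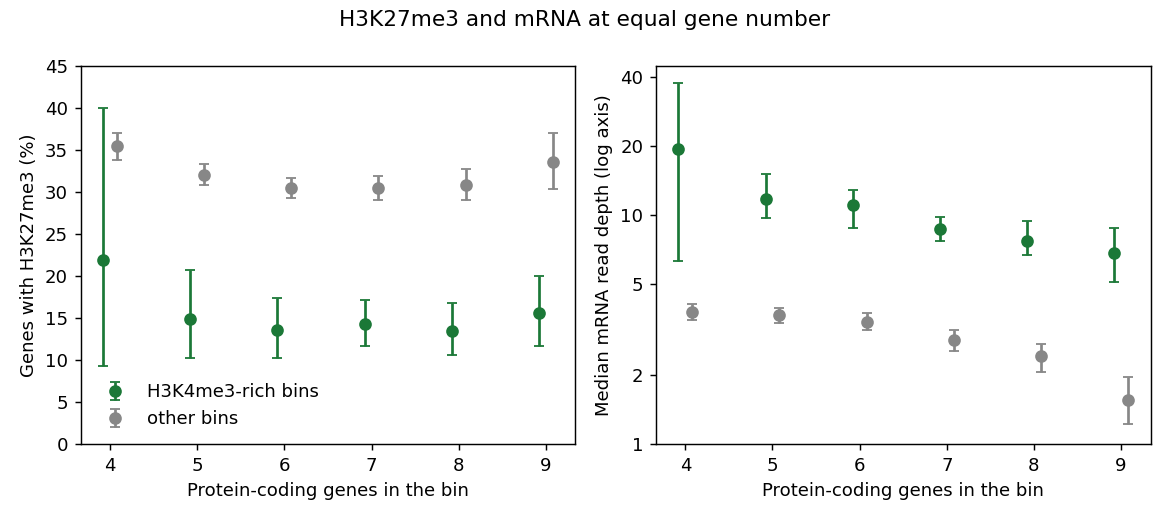
Points give the share of genes with H3K27me3 (left, %) and the median mRNA read depth (right, log axis) for genes in bins with 4 to 9 protein-coding genes, in H3K4me3-rich bins (green) and other bins (grey), with 95% counting intervals. At each number from 5 to 9 the intervals of the classes lay apart, as with 14.3% and 30.5% for H3K27me3 at 7 genes.

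Depth differed less once genes were grouped by their own H3K4me3. With 750 to 1049 marked bases, the median depth was 10.5 (9.51 to 11.8) for 630 genes in rich bins and 9.78 (9.44 to 10.1) for 5670 genes elsewhere. With 1050 to 1349 bases it was 14.2 (12.8 to 17.7) and 12.4 (11.6 to 13), and with 1350 or more it was 22.4 (19.6 to 25.1) and 18.9 (17.4 to 20.7). With 150 to 449 bases it was 1.43 (1.00 to 1.95) and 1.49 (1.37 to 1.57). Intervals overlapped in each of the 5 groups, although the median was higher in rich bins in 4 of them. The groups did not fully equalise the mark. From 750 bases upward, median marked bases were 883, 1156 and 1650 in rich bins and 750, 1050 and 1500 elsewhere. Below 750 bases they were equal, at 300 and 600. The part of this difference in the depth was not tested. The genes without H3K4me3 numbered 248 in rich bins, of which 44.4% (38.1 to 50.8) were listed, against 32.3% (31.3 to 33.2) of the 9525 unmarked genes elsewhere.

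**Figure D4:**
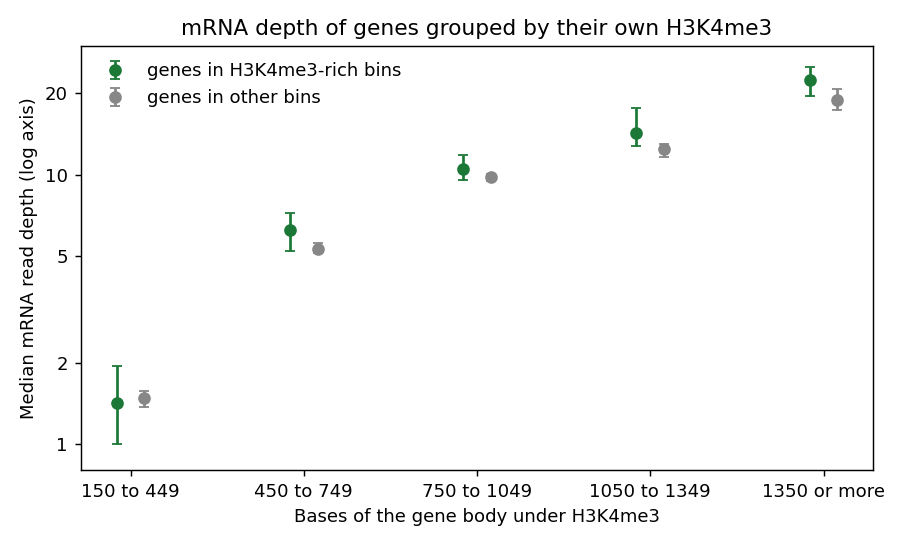
Points give the median mRNA read depth (log axis) of genes grouped by the number of bases of their body under H3K4me3 (x axis), in H3K4me3-rich bins (green) and other bins (grey), with 95% counting intervals. Depth climbed from 1.43 to 22.4 across the groups in rich bins and from 1.49 to 18.9 elsewhere, and within a group the intervals overlapped.

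Few genes of rich bins without the mark had much mRNA. Of these 248 genes, 9 (3.63%, 1.67 to 6.78) had a depth of 10 or more and the median was 0. Of the 1903 genes with the mark, 51.9% (49.6 to 54.1) had that depth. The same contrast was found in other bins. There, 187 of the 9525 unmarked genes (interval 1.69% to 2.26%) had that depth, with a median of 0. Of the marked genes there, 41.7% (41.0 to 42.5) had it. Another annotated gene overlapped 31.0% of the unmarked genes in rich bins and 20.0% elsewhere. The 5 deepest genes of rich bins without H3K4me3 were AT1G19715 (37.9), AT2G47880 (21.1), AT5G66053 (19.8), AT1G49960 (16.5) and AT4G17280 (13). All 5 overlap another annotated gene, so their reads cannot be told apart from those of the neighbour. AT2G47880 lay wholly under H3K27me3.

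H3K27me3 was sparse in rich bins. It covered 5.67% of their bases, against 15.6% in other bins, and 108 rich bins (35.0%, 29.6 to 40.6) had none of it, beside 14.9% of all bins. Of the genes in rich bins, 14.6% (13.1 to 16.2) carried H3K27me3 over at least 150 bases, beside 31.0% of all protein-coding genes and 32.4% (31.8 to 32.9) in other bins. H3K27me3 alone was on 4.56% (3.71 to 5.52) of them, against 22.2% elsewhere, and neither mark on 6.97% (5.93 to 8.13), beside 14.8% of all genes. Both classes lack H3K4me3, which chose the bins, so lower shares are built into the choice. Among genes without H3K4me3, 39.5% (33.4 to 45.9) in rich bins and 59.0% (58.0 to 60.0) elsewhere carried H3K27me3. At 7 genes per bin, 14.3% (11.7 to 17.2) of genes in rich bins and 30.5% (29.1 to 31.9) in other bins carried it. The 364 H3K27me3 domains centred in rich bins were a median of 750 bases wide (elsewhere 900), with a maximum of 6000 (elsewhere 24900).

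Both marks together were on 10.04% (8.80 to 11.4) of genes in rich bins, a share near the 10.1% of all genes. The marks were measured in separate samples of leaf tissue, so both on a gene need not come from the same cells. Among genes with H3K4me3, 11.4% (9.96 to 12.9) in rich bins also had H3K27me3, against 16.3% (15.7 to 16.9) elsewhere. Of the 314 genes of rich bins with H3K27me3, 216 (68.8%, 63.3 to 73.9) also had H3K4me3, against 31.4% (30.4 to 32.4) of 8185 elsewhere. H3K4me3 chose the bins, so a higher share is built into the comparison. The marks shared 129950 bases in rich bins, which was 37.1% of the H3K27me3 bases there and 6.70% of the H3K4me3 bases. In other bins the shared bases were 7.90% of H3K27me3 and 10.7% of H3K4me3. In rich bins 31.4% of all bases were under H3K4me3 and in other bins 11.6%, so H3K27me3 lay under H3K4me3 slightly more than its surroundings in the former and less in the latter. The difference of 29.2 percentage points was 10.7 when the lower-scoring 50% of each domain list was left out and bins were ranked again, where the shares were 12.4% and 1.64%. The share of all bases under H3K4me3 is not given for that setting, so the comparison with surroundings holds for the full lists only.

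Of the H3K27me3 genes in rich bins, 31.2% (26.1 to 36.7) had a depth of 10 or more, against 9.13% (8.51 to 9.77) elsewhere. That share is near the 28.3% of all protein-coding genes and below the 46.3% of all genes in rich bins. H3K4me3 was also on 95 of the 98 H3K27me3 genes with that depth in rich bins, and on 642 of 747 elsewhere. It chose the bins, and 68.8% of H3K27me3 genes in rich bins had it against 31.4% elsewhere. A higher share of deep genes is therefore largely built into the comparison. Of the 5 genes of rich bins with the most H3K27me3, GUN5 had 2400 bases under it and 3750 under H3K4me3 at a depth of 794.9. The multicopper oxidase-like gene sks9 had 2400 and 600 at a depth of 7.14. AT1G02190 (2827 bases) and AT5G49750 (2523) had no H3K4me3 and were not listed, and MLO10, of the mildew resistance MLO family, had 2400, no H3K4me3 and a depth of 1.00. Genes with both marks had a median depth of 7.09 (4.14 to 10.1) in rich bins and 2.21 (2.04 to 2.44) elsewhere. These genes were not equally marked in the 2 classes. Their median H3K4me3 was 900 bases in rich bins and 600 elsewhere, and H3K27me3 covered a median of 42.4% and 53.5% of the body. The part of these differences in the depth was not tested.

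Of the 309 rich bins, 1 was also among the 315 of all 5959 bins that were richest in H3K27me3. Both marks were ranked over the same 20 kb bins, and this count was not tested. The 315 bins richest in H3K27me3 had at least 9000 bases of it, 40.4% of their genes listed and a median depth of 0. The shared bin, on chromosome 3 (3940001 to 3960000), had 6900 bases under H3K4me3 and 10200 under H3K27me3. Its 10 genes all carried H3K4me3. H3K27me3 covered 83.6% of AT3G12410 and the whole of AT3G12420, AT3G12430, AT3G12440, AT3G12460 and AT3G12470, a row of neighbours with depths of 1.00 and 1.21 for AT3G12410 and AT3G12460 and none listed for the other 4. Its domains of 3300 bases (3947401 to 3950700) and 6000 bases (3951001 to 3957000) held the 99.5th and 99.8th percentile of score. The H3K4me3 domains over these genes were 300 to 750 bases wide and stood between the percentiles of 7.33 and 34.5. On the flanks without H3K27me3 lay ELC (16.3 in depth), ARP5 (4.89), AT3G12390 (56.4) and NF-YC11 (13.9).

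The bins next in H3K27me3 held several enzyme genes with both marks. On chromosome 3 (7660001 to 7680000, 8300 bases of H3K27me3) lay glucosyltransferases of the UGT71B group, which attach sugars to small molecules. HYR1 had 1574 bases of H3K4me3, 1500 of H3K27me3 and a depth of 29.1. UGT71B1 had 1350 and 1200 at a depth of 12, and UGT71B6 had 900 and 0 at 1.59. On chromosome 4 (18520001 to 18540000, 6500 bases) lay CYP79B2, which turns tryptophan into the precursor of indole glucosinolates, with 1200 bases of H3K4me3, 1800 of H3K27me3 and a depth of 19.1. Beside it AKN2, an adenylylsulphate kinase that supplies sulphate donors, had 750 and 1705 at a depth of 56.7. AT3G21790 of the former bin also carried both marks, at a depth of 13.9, so 5 genes of these bins had both marks and a depth above 8.91, the median of rich bins.

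Some rich bins had little mRNA. The lowest summed depth, 12.2, was found on chromosome 4 (12140001 to 12160000), where all 5 genes were cysteine-rich receptor-like kinases, a family of cell surface proteins linked to defence. CRK11, CRK12, CRK13, CRK14 and CRK15 had 450 to 1500 bases of H3K4me3 and depths of 1.63, 3.13, 3.35, 2.44 and 1.63. This tandem array had 6200 marked bases, more than the median rich bin, without a gene at a depth of 10. The second, on chromosome 1 (3260001 to 3280000), summed to 24.1, with AT1G10020 at 9.45, ERG28, a homologue of a yeast sterol synthesis protein, at 9.15, and the amino acid permease AAP8 not listed, with 1415 bases under H3K27me3. The third, on chromosome 3 (220001 to 240000), summed to 31.7. There, CDC48C, an AAA ATPase of the CDC48 family, had 5.78, and the NAC transcription factor gene NAC044 had 1.00 with no base under either mark.

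Gene lists differed in how many members lay in rich bins, beside the 7.84% of all protein-coding genes. The lists were chosen with earlier results of these data known, and their counts were not tested. Of 20 light-harvesting antenna genes, 10 lay in 7 rich bins (50%, 27.2 to 72.8), all with H3K4me3. The shallowest of the 10 was LHCB4.2, a minor photosystem II antenna gene, at 2847, and the 10 members outside had a median of 3451. Of 19 photosystem subunit genes, 4 did (21.1%, 6.05 to 45.6), namely PSBO1, PSBW (2644), PSAD-2 (1820) and PSBO2 (1321). Of 10 Rubisco and Calvin cycle genes, RCA and GAPA-2 (1698), a glyceraldehyde phosphate dehydrogenase, did (20%, 2.52 to 55.6).

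Genes of protein synthesis and turnover were also found there. Of 26 cytosolic ribosomal protein genes, 7 lay in 7 different rich bins (26.9%, 11.6 to 47.8). The deepest were SAC52 (339.2), EMB2296 (273.1), RPL23AA (265.0) and AT5G02870 (211.9), and the shallowest was RPSAb (4.95). The median over all 26 was 131.4. Of 15 proteasome subunit genes, RPT3 (46.6) and RPN12a (35.9) did, and of 17 reference and housekeeping genes, AT1G07940 (289.0), 1 of several near-identical translation elongation factor genes, and the actin gene ACT7 (274.8) did. The shares of the last 2 lists were 13.3% (1.66 to 40.5) and 11.8% (1.46 to 36.4). The intervals of the photosystem, Calvin cycle, proteasome, reference and NLR lists spanned the 7.84% of all genes. Those of the antenna and ribosomal lists lay above it, which is no test of these lists. The intervals treat genes as independent, but CAB1, CAB2 and CAB3 share 1 bin. A member's own H3K4me3 also helped to choose its bin.

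Immune receptors had the lowest median depth, 9.28, of the lists with members in rich bins. Of 17 NLR genes, which encode intracellular sensors of pathogens, 4 lay in 4 rich bins (23.5%, 6.81 to 49.9). RPP5 had a depth of 49.9 and 2400 bases of H3K4me3, RPP13 21.3 and 1950, and RPS2 4.83 and 2100. None of these 3 carried H3K27me3. RPP5 belongs to a cluster of similar copies, so its reads may be shared. No member lay in a rich bin among 16 genes of H3K4 methylation and demethylation, 13 floral MADS genes and 11 seed storage protein and oleosin genes. These counts of 0 have upper limits of 20.6%, 24.7% and 28.5% (Clopper-Pearson), all above 7.84%. The median depths of the 3 lists were 4.15, 1.00 and 0.

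Along the chromosomes, rich bins made up 3.96% of the bins of chromosome 2 and 6.05% of those of chromosome 3, with the others between. On each chromosome they were missing from 1 long stretch. The longest runs without one were 7.92 Mb on chromosome 1 (10480001 to 18400000), 7.48 Mb on chromosome 2 (1 to 7480000), 7.30 Mb on chromosome 3 (9820001 to 17120000), 6.18 Mb on chromosome 4 (1120001 to 7300000) and 8.56 Mb on chromosome 5 (7860001 to 16420000). Their bins held a mean of 2.25 to 2.81 genes, and H3K4me3 covered 4.40% to 6.38% of the bases. The CAB cluster, the richest bin of all, is the last rich bin before the run on chromosome 1. By chromosome, the median depth of genes in rich bins was 8.37 to 9.98 and that of other genes 2.70 to 3.18.

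Most rich bins stood alone. Of the 309, 232 had no rich neighbour, 58 formed 29 pairs, and 3 runs of 3, 1 of 4 and 1 of 6 bins made up the rest. The run of 6 lay on chromosome 5 (26340001 to 26460000), with 37950 bases under H3K4me3 and 6600 under H3K27me3 over 45 genes, 43 of them listed, at a median depth of 8.79. Its deepest gene was FNR1, the leaf ferredoxin-NADP(+) oxidoreductase of photosynthetic electron transport, at 346.8, followed by the sulphurtransferase STR16 at 106.2. Its unlisted genes were ATSAC1B, with neither mark, and AT5G65980, named PIN-LIKES 7, with 1800 bases under H3K27me3.

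Around rich bins, H3K4me3 in bins that were not rich changed little with distance up to 200 kb, and stayed above the mean of 2310 bases over all other bins. Such bins lie below the limit by their choice. The bins next to a rich bin that were not rich themselves had a mean of 3216 bases under H3K4me3 and 2534 under H3K27me3, against 6276 and 1133 in rich bins. At 200 kb the means were 3020 and 3063. The adjoining bins held 5.71 genes with a median depth of 4.11, and those at 200 kb held 5.49 with 4.06, beside 4.48 and 3.03 over all other bins. Of all bins adjoining a rich one, 13.2% were rich, and of those 200 kb away 10.2%, beside 5.19% of all bins. Gene density also varies along the chromosomes, and its part in these values was not tested.

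**Figure D5:**
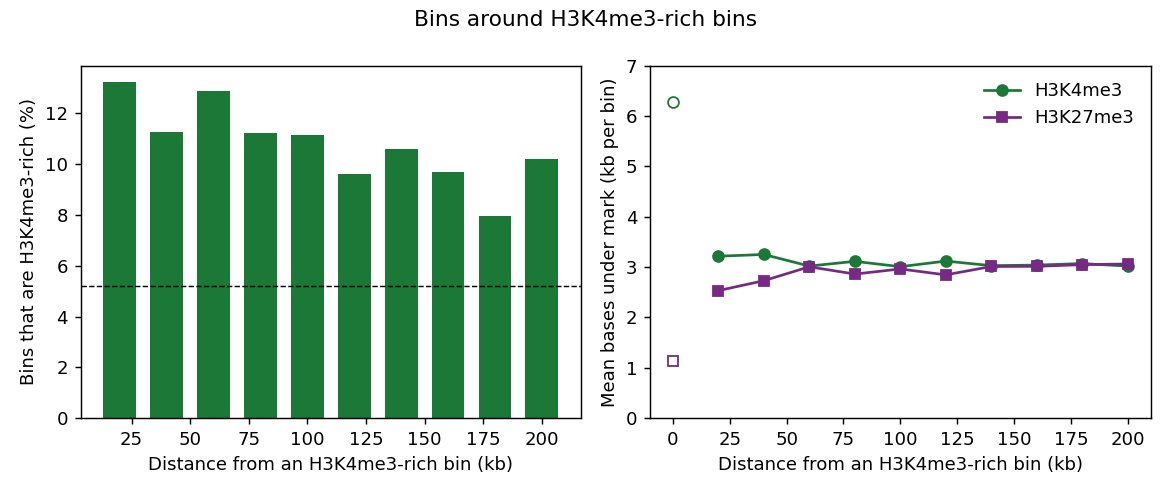
The left panel gives the percentage of bins that were H3K4me3-rich at each distance (kb) from a rich bin, with the dashed line at 5.19% for all bins. The right panel gives the mean kb per bin under H3K4me3 (circles) and H3K27me3 (squares) in bins that were not rich, with rich bins themselves as open symbols at 0 kb. H3K4me3 went from 6276 bases in rich bins to 3216 in the adjoining ones.

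Reads and marks in overlapping gene bodies cannot be assigned to 1 gene. An annotated overlap was found for 38.9% of the genes in rich bins and 27.4% elsewhere. Among the genes named, it affects all 6 of the second bin, CAB1, LHB1B2, LHCA4, LHCB6, RCA, LHCB4.2, PSAD-2, GRP2, NF-YB2, NF-YB6, AT5G47635, GLDP1, TOC159, MLO10, HYR1, UGT71B1, UGT71B6, ELC, AT3G12390, NF-YC11, CRK11, ERG28, CDC48C, RPSAb, RPT3, RPN12a, AT1G07940, RPP5, RPP13, RPS2, FNR1 and STR16. Among genes with no such overlap the median depth was 8.30 (7.56 to 9.11) in rich bins and 2.26 (2.15 to 2.39) elsewhere.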

How the data were processed

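The authors deposited 1 domain list per mark, with a whole-number score of unstated unit per domain, and a coverage signal for mRNA, given per gene as mean exon depth. The submitters' processing notes name Bowtie, SICER and TAIR10 but no version or setting. Per the labels the ChIP samples of a mark are 2 biological replicates. How they and the input were combined in calling domains was not stated. H3K4me3 domains are multiples of 150 bases and H3K27me3 domains of 300, with the end column as the last base, so 1 was added to starts and ends.

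Gene names and bodies came from the RefSeq table of assembly TAIR10.1, whose coordinates are not printed. Domains fitted gene bodies best at a shift of 0 on each of the 5 chromosomes, among shifts up to 10 kb. Of 20764 loci in the mRNA table, 20677 matched. Chromosome ends were taken as the last annotated or covered base, and 1 rich bin is a shorter end bin. A gene belonged to the bin holding its midpoint and counted as marked from 150 covered bases of its body upward, a shorter gene only if wholly covered. The pseudocount was 1. Shares have exact Clopper-Pearson intervals, and medians have intervals taken from ranks.

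With 1 domain list per mark and 1 mRNA library, no test was made. The bins, gene lists and named genes were chosen with earlier results of these data known. Named were the 5 richest bins and their genes, bins at the limit, those with the most H3K27me3 or lowest depth, the longest run, the 10 deepest genes, the top 5 by each mark and without H3K4me3, and list members. Bins with the highest summed depth and the chromosome end bin were added after their values were seen, as were genes named in bins other than the 5 richest. Coverage and ranking were checked on simulated domains. Promoter sequences and motifs are not analysed here, and 1 list member is not reported here. Python 3.11.15, numpy 2.4.6, pandas 2.3.3 and scipy 1.17.1 were used.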

Additional observations from a re-analysis of the deposited data

How the results depend on the processing

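In the 68 alternatives run for 7 results, no difference reversed. Gene number under weighting to equal gene number was 0 by construction. The median depth in rich bins is a positive value, so its 10 alternatives could not reverse. For shared bases, H3K4me3 chose the bins in each alternative, so the direction is largely built into the choice. Of the 68, 43 stayed within the main 95% interval. The main values were 2.48 more genes per bin, -9.96 percentage points of bases under H3K27me3, -17.8 points of genes with H3K27me3, 19.1 points of genes listed, a median depth of 8.91, a log2 difference of 1.17, and 29.2 points of H3K27me3 bases shared with H3K4me3. Without the lower-scoring 50% of domains they were 2.10 for genes, -7.97 for H3K27me3 bases, -15.4 for H3K27me3 genes, 17.6 for listed genes and 10.7 for shared bases. With 10 kb bins they were 1.48 for genes, 21.7 for listed genes, 10.2 in median depth, 1.47 in log2 and 42.9 for shared bases. The top 2% gave 2.70 for genes, -16.1 for H3K27me3 genes and 39.1 for shared bases, and the top 10% a median depth of 8.09 and 21.9 for shared bases. Against other bins with at least 4 genes the gene difference was 1.25, and with every overlapped bin counted 2.81. With marks over 50% of the body, H3K27me3 genes gave -15.5. Listed genes only gave a median of 10.5 and a log2 difference of 0.64, and a pseudocount of 0.1 gave 1.83. The last pair of settings below, and all those on shared bases, were chosen after seeing the data. Weighting to equal gene number gave 0 for genes and 20.9 for listed genes, and genes without overlaps gave -19.6 for H3K27me3 genes and 21.5 for listed genes. The cause of these shifts was not tested. No paired analysis was possible because each mark has 1 domain list, and no replicate could be left out for the same reason. The depth of the libraries is unknown.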

Other observations

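Bins with the most genes were not the richest in H3K4me3. The 3 bins with 12 protein-coding genes had 3250, 4700 and 3550 bases under it. The first, on chromosome 3 (8000001 to 8020000), held the proteasome gene PBD1 (27.5 in depth) and RDM1 of RNA-directed DNA methylation, with 5800 bases under H3K27me3 and 7 genes listed. The second, on chromosome 4 (8500001 to 8520000), held the cysteine synthase OASA1 (103.5) and PBD2, with 10 of its genes carrying H3K4me3. The third, on chromosome 4 (11840001 to 11860000), had 13200 bases under H3K27me3, 2 genes listed and a largest depth of 3.42.

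At the very end of chromosome 3 (23440001 to 23459804), a bin shortened to 19804 bases was also rich, with 7250 bases under H3K4me3. All 7 of its genes carried the mark and were listed, among them EMB3126 at a depth of 221.2, the carotenoid cleavage dioxygenase CCD1 and the organ size regulator BB.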
